A study of Mus musculus with 11 samples.

Results

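The 45 genes described here make the machinery by which a cell takes secretory proteins into the endoplasmic reticulum, folds them, and removes those that fail. They were chosen by symbol from the 54532 genes of a count table of mouse pancreas, and each symbol matched 1 row. They fall into 11 folding chaperones and cochaperones, 11 disulfide isomerases and other thioredoxin-fold proteins, 9 genes of translocation and signal peptide removal, 10 degradation genes, 3 genes of the stress sensors and their transcription factor, and 1 cargo export gene. Bulk polyadenylated RNA of whole pancreas from C57BL/6JRj mice gave 11 libraries, which the labels number as separate mice. Young mice were 7 weeks old and aged mice 18 months old, and no other genotype or allele is named. There were 3 young and 2 aged untreated mice (the aged ones numbered 2 and 3), and 3 young and 3 aged mice given caerulein, a cholecystokinin analogue that drives acinar cells to secrete and at high dose injures them. Treated mice received 4 intraperitoneal injections of 125 µg/kg, spaced hourly, and carry the label 5H. The notes on when tissue was taken can be read in more than 1 way, so no other time is given here. Whole pancreas is a mixture of cells, so fewer cells of a type and less RNA per cell cannot be told apart in any value below.

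Pancreatic acinar cells secrete large amounts of digestive enzyme, and their rough endoplasmic reticulum is among the most extensive of any mammalian cell. Nascent chains enter through the Sec61 channel, lose their signal peptide to signal peptidase, fold with the Hsp70 chaperone BiP (Hspa5), the Hsp90 chaperone Grp94 (Hsp90b1) and the lectins calnexin and calreticulin, and gain disulfide bonds from protein disulfide isomerases. Chains that stay misfolded are trimmed by EDEM proteins, handed through Os9 and Sel1l to the ubiquitin ligase Hrd1 (Syvn1) and moved to the cytosol with derlins. When unfolded proteins accumulate, the sensors Ire1 (Ern1), Atf6 and Perk start the unfolded protein response, in which Ire1 splices Xbp1 mRNA and the factors Xbp1 and Atf6 switch on many of these same genes.

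The libraries held 14223190 to 26537091 counts assigned to genes. After a filter on low counts 14113 genes were tested, and all 45 members passed it. Levels are in CPM, counts brought to a common library size by TMM (trimmed mean of M-values, which takes the bulk of genes as unchanged) unless library totals are named, and values in a group are given in the order of the mouse numbers. Differences are log2 fold changes ± SE from edgeR's quasi-likelihood test over all genes, and a gene is called at a Benjamini-Hochberg adjusted p below 0.05. The verbs rose and fell are kept for called genes under TMM. The scaling matters here. Summed counts of 8 acinar cell markers were at 371200 to 401344 CPM of the library total in untreated and 287097 to 321158 in caerulein libraries, and the median log2 fold change of all tested genes after caerulein was -0.061 in young and 0.070 in aged mice under TMM but 0.43 and 0.69 with library totals. Counts of called genes are therefore given on both scales. The library of young untreated mouse 2 stood apart. Its summed markers of B and plasma cells were at 186 CPM of the library total against at most 5.54 in the other 10 libraries, those of T cells at 64.1 against at most 0.829, and those of adipocytes at 238 against at most 10.99. Its summed TMM level of the 45 genes was 4317 CPM against 6810 and 7033 in the other young untreated libraries. On library totals the gap was far smaller, 0.488% of counts against 0.513% and 0.523%, as its TMM factor was 1.13 against 0.753 and 0.744. The counts, and the caerulein responses of genes given library by library, are therefore also given without it. The part of these markers in the results was not tested.

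Before treatment the 45 genes took 0.508% ± 0.0177 (SD, n = 3) of all counts in young and 0.501% ± 0.0555 (SD, n = 2) in aged mice. Levels between genes were compared per length, with the authors' deposited FPKM (fragments per kilobase of gene). Their denominator was not the library total but 0.696 to 1.33 times it, so FPKM levels of different groups are not on the scale of library totals. In young untreated mice the disulfide isomerase P4hb was highest of the 45, at 314 ± 92.3 FPKM (SD, n = 3). Next came the cargo export gene Tmed6 at 259.9 ± 86.7 FPKM and Herpud1, a membrane protein of the degradation complex, at 155 ± 52.3 FPKM. The pancreas-enriched isomerase-like protein Erp27 was at 96.2 ± 28.8 FPKM and Hspa5 was next at 88.2 ± 23.9 FPKM. The SDs of these neighbours overlap, and in each of the 5 the lowest of the 3 young libraries was that of young untreated mouse 2, at 208 FPKM for P4hb against 362 and 372. The FPKM denominator of that library was 1.14 times its total, against 0.752 and 0.732 in young untreated mice 1 and 3. Pdia5 was the lowest, at 1.29 ± 0.0691 FPKM, below Derl2 at 2.16 ± 0.283 FPKM. Aged untreated mice had the same gene, P4hb, at the top, at 354 ± 26.2 FPKM (SD, n = 2).

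After caerulein the 45 genes took 0.667% ± 0.0335 of counts in young and 0.807% ± 0.0668 in aged mice (SD, n = 3 each), and the 11 folding genes alone went from 0.108% ± 0.00551 to 0.205% ± 0.0180 in young and from 0.0913% ± 0.0124 to 0.3004% ± 0.0361 in aged mice. Hspa5 became the highest of the 45 at both ages, at 269 ± 27.5 FPKM in young and 428 ± 15.1 FPKM in aged mice. Its ratio to the FPKM of other lumenal chaperones, which no scaling between libraries can change, moved by far more than its spread. Hspa5 over Hsp90b1 was 3.38 ± 0.558 and 3.38 ± 0.284 in young and aged untreated mice, and 16.1 ± 1.60 and 13.5 ± 1.38 in young and aged caerulein mice. Hspa5 over calreticulin (Calr) went from 2.24 ± 0.441 to 13.2 ± 1.01 in young mice and from 2.38 ± 0.0461 to 13.8 ± 0.324 in aged mice. Hspa5 over the isomerase Pdia4 went from 8.87 ± 2.25 to 123 ± 27.6 and from 10.6 ± 0.178 to 104 ± 12.8 in the same order. In young untreated mouse 2 the 3 ratios were 2.75, 1.75 and 6.27. These pairs were picked after the values were seen and are a description with no test.

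**Figure D1:**
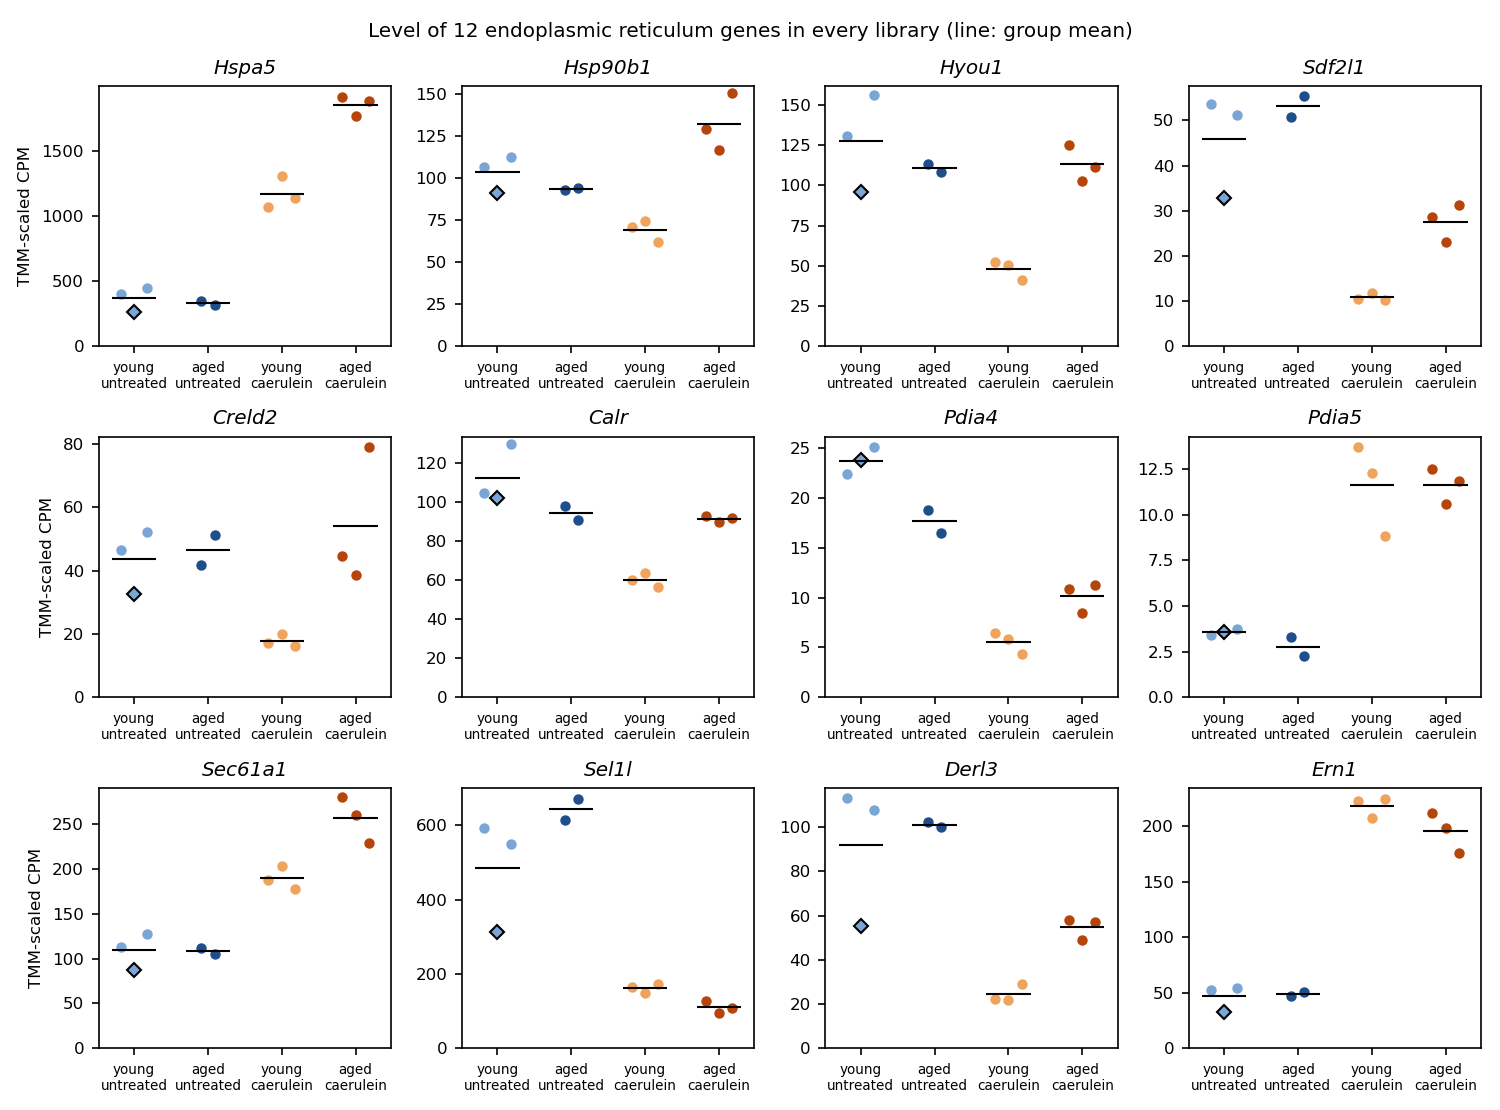
TMM-scaled CPM (vertical axes, linear, from 0) of 12 of the genes in each of the 11 libraries, with points by group on the horizontal axes, group means as lines and young untreated mouse 2 as an outlined diamond. Hspa5, Pdia5, Sec61a1 and Ern1 lie higher in every caerulein library than in any untreated library, Sel1l and Derl3 lie lower in every caerulein library than in the untreated libraries of the same age, and Hsp90b1 lies below the untreated libraries in young and above them in aged caerulein mice.

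The promoters show which of the members carry the sequence that Atf6 and Xbp1 are known to use. RefSeq promoters of build GRCm38.p6, from 250 bases before to 50 bases after the start, were available for 36 of the 45 genes. They were searched on both strands for the endoplasmic reticulum stress element ERSE (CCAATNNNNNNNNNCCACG), for ERSE-II (ATTGG, then any base, then CCACG) and for the Xbp1 element UPRE (TGACGTGG), none of which contains another. ERSE was present in 39 of 32851 promoters of the table (0.119%), and 9 of the 36 genes here hold it. ERSE-II was in 12 promoters (0.0365%), among them those of Dnajb11 and Herpud1, and UPRE in 222 (0.676%), among them those of Txndc5 and Txndc11. The list was made of known endoplasmic reticulum genes, so these shares describe the list and nothing more. The sites are shown because genes that hold the same element went opposite ways after caerulein. Capitals mark the element, read along the strand of the gene, and an ERSE on the other strand appears as its reverse complement, from CGTGG to ATTGG.

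Hspa5: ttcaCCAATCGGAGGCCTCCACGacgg
Hsp90b1, far site: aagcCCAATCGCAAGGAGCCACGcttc
Hsp90b1, near site: agtgCGTGGTGAGGCACGATTGGtgag
Calr: aacgCGTGGTCGACCCTCATTGGccca
Canx: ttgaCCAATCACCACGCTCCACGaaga
Dnajc3: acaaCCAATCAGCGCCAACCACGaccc
Creld2: ttctCGTGGCGAGCCTCAATTGGtcca
Pdia6: gagaCCAATGAAAGGCGGCCACGgcgt
Syvn1: gcaaCCAATCGGCGGTAGCCACGggaa
Derl3: ctacCGTGGGACTTCCCCATTGGctag
Dnajb11, ERSE-II: ggcgATTGGCCCACGcctg
Herpud1, ERSE-II: gctgATTGGGCCACGttgg
Txndc5, UPRE: ccgcTGACGTGGcgct
Txndc11, UPRE: tggcTGACGTGGagag

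The Hspa5 promoter lies at chr2:34771840-34772139 on the forward strand, with the ERSE match from 65 to 47 bases before the start. The Hsp90b1 promoter lies at chr10:86705395-86705694 on the reverse strand, with matches from 212 to 194 and from 107 to 89 bases before the start. Ern1 is shown for the largest rise in young mice (chr11:106487747-106488046, reverse strand) and Pdia4 for the lowest value there with all libraries (chr6:47813463-47813762, reverse strand), a place it holds by less than its SE. None of the 3 elements is written in the Ern1 and Pdia4 windows, which says nothing about binding.

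Hspa5: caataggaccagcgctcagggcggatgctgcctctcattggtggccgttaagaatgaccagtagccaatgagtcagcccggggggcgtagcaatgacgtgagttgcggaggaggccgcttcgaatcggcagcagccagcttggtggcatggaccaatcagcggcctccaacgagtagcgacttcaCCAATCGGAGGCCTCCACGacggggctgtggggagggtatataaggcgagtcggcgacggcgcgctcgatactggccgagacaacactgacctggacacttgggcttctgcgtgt
Hsp90b1: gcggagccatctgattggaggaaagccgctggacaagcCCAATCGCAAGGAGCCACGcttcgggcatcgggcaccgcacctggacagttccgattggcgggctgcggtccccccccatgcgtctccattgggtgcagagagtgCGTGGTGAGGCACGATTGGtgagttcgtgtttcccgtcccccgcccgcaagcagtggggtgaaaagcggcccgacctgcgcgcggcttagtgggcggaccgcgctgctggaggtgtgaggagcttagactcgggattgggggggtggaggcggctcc
Ern1: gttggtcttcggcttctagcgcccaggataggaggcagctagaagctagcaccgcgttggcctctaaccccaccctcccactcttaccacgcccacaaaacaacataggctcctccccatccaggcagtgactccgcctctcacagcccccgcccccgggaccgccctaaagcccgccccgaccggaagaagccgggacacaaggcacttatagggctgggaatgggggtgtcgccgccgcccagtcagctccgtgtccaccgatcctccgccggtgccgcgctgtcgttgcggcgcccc
Pdia4: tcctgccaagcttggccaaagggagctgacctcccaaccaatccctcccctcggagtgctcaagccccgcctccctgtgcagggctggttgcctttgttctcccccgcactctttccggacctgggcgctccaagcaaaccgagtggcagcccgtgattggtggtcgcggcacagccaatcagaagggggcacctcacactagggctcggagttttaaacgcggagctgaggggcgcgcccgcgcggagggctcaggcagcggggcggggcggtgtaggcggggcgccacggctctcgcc

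Caerulein split the module. Under TMM 6 of the 45 genes rose in young mice, 27 fell and 12 did not pass, where 27.5% of all tested genes were called higher and 24.7% lower. In aged mice 9 rose, 20 fell and 16 did not pass, against 27% and 21.2% of all genes. The median of the 45 log2 fold changes was -0.53 in young and -0.28 in aged mice, beside -0.061 and 0.070 over all tested genes. With library totals 12 were called higher and 14 lower in young mice (37.7% and 8.99% of all genes) and 20 higher and 7 lower in aged mice (38.6% and 7.61%), with medians of 0.015 and 0.33 beside 0.43 and 0.69. Both scales therefore put the median of the 45 below that of all genes. Without young untreated mouse 2 the TMM counts were 4 higher and 32 lower in young mice (30.8% and 26.8% of all genes) and 12 higher and 24 lower in aged mice (30.7% and 27.6%). Leaving out aged untreated mouse 2 leaves 1 library in its group. The median of the 45 in aged mice was then -0.22, beside 0.058 over all genes. Library totals without young untreated mouse 2 gave 13 higher and 14 lower in young mice (52.9% and 7.95% of all genes) and 21 higher and 8 lower in aged mice (48.9% and 10.5%). The 5 genes called higher at both ages were Hspa5, Pdia5, Txndc5, Sec61a1 and Ern1. All 5 were also called higher at both ages with library totals, and all but Txndc5 in young mice (log2 0.29, adjusted p = 0.0509) without young untreated mouse 2. Of the 27 genes that fell in young mice, 18 fell in aged mice too, and Hsp90b1 and Syvn1 rose there.

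**Figure D2:**
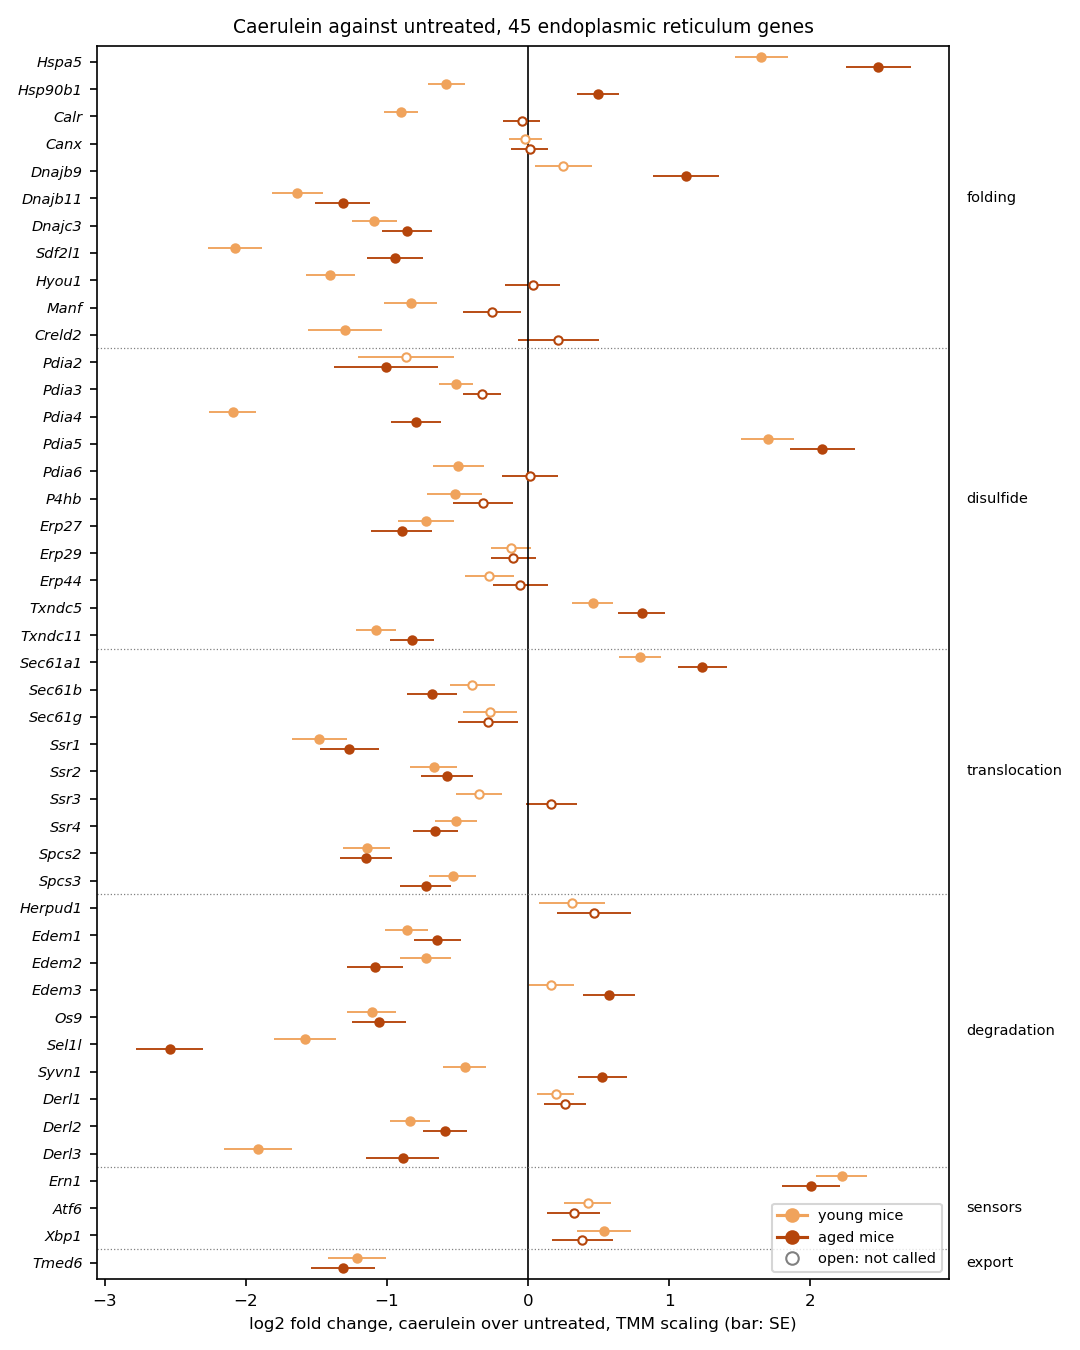
Log2 fold change of caerulein over untreated mice under TMM scaling (horizontal axis, bars are SE of the edgeR fit) for each of the 45 genes, by class, in young (n = 3 against 3) and aged mice (n = 3 against 2). Filled points are called at adjusted p below 0.05. Hspa5 lies at 1.65 and 2.48 and Sel1l at -1.58 and -2.54, and most other genes lie left of 0.

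Folding chaperones. Of the 11 genes, caerulein gave 1 higher, 8 lower and 2 not passed in young mice (median -0.90) and 3 higher, 3 lower and 5 not passed in aged mice (median 0.013). With library totals the counts were 3 higher, 5 lower and 3 not passed in young mice and 7 higher, 1 lower and 3 not passed in aged mice, and without young untreated mouse 2 under TMM they were 1 higher, 8 lower and 2 not passed (median -1.08) and 3 higher, 4 lower and 4 not passed (median -0.052). Over all tested genes under TMM 27.5% were called higher and 24.7% lower in young mice, and 27% and 21.2% in aged mice. With library totals the shares were 37.7% and 8.99%, and 38.6% and 7.61%. They were 30.8% and 26.8%, and 30.7% and 27.6%, under TMM without young untreated mouse 2. Hspa5 encodes BiP, the Hsp70 of the lumen that binds nascent chains and holds the stress sensors inactive. It was at 403, 263 and 448 CPM in young untreated mice, 349 and 314 in aged untreated mice, 1071, 1303 and 1134 in young caerulein mice and 1913, 1765 and 1878 in aged caerulein mice. Every caerulein library was above every untreated one, and the aged caerulein libraries were above the young ones. The log2 fold change was 1.65 ± 0.19 (adjusted p = 3.1e-05) in young and 2.48 ± 0.23 (adjusted p = 7.07e-06) in aged mice, and 2.22 and 3.09 with library totals. Without young untreated mouse 2 the values were 1.41 and 2.42, and the gene stayed called at both ages under all 20 alternatives.

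Hsp90b1 encodes Grp94, the Hsp90 of the lumen, which folds a narrower set of clients. It was at 107, 91.3 and 112 CPM in young untreated mice, 92.9 and 94.1 in aged untreated mice, 71.2, 74.5 and 62.1 in young caerulein mice and 129, 117 and 150.4 in aged caerulein mice. The young caerulein libraries lay below and the aged ones above all untreated libraries of their age. Hsp90b1 fell in young mice, -0.58 ± 0.13 (adjusted p = 0.00372), and rose in aged mice, 0.50 ± 0.15 (adjusted p = 0.0173). The direction in young mice rests on the scaling. With library totals it was -0.053 (adjusted p = 0.826), and 0.069 when library totals were used and that comparison left out young untreated mouse 2, whereas in aged mice it was 1.12 (adjusted p = 0.000945). Under TMM without young untreated mouse 2 it was -0.71 and 0.43. The call in aged mice was lost without aged untreated mouse 2 (0.51, adjusted p = 0.101), aged untreated mouse 3 (0.53, adjusted p = 0.0888) or aged caerulein mouse 3 (0.39, adjusted p = 0.0567), and with the strict filter (0.13, adjusted p = 0.437).

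Calr, a soluble lectin chaperone that also stores calcium, was at 105, 102 and 129.9 CPM in young untreated mice, 98.4 and 90.9 in aged untreated mice, 60.4, 63.7 and 56.4 in young caerulein mice and 93.1, 89.8 and 92.1 in aged caerulein mice. Every young caerulein library was below the untreated ones, and the aged groups overlapped. Calr fell in young mice, -0.90 ± 0.12 (adjusted p = 8.58e-05), and was at -0.046 ± 0.13 (adjusted p = 0.806) in aged mice. With library totals it was -0.38 (adjusted p = 0.0754) and 0.57 (adjusted p = 0.0261), so in aged mice it was called higher on that scale. Its membrane-bound relative Canx was at -0.020 ± 0.12 and 0.013 ± 0.13 under TMM, not called at either age, and at 0.49 and 0.61 with library totals, called at both. Hyou1, a large Hsp70 relative that exchanges nucleotide on BiP, was at 131, 96.0 and 156 CPM in young untreated mice, 113 and 108 in aged untreated mice, 52.5, 50.9 and 41.5 in young caerulein mice and 125, 103 and 112 in aged caerulein mice. It was lower in every young caerulein library, while the aged groups overlapped. Hyou1 fell by 1.40 ± 0.18 on the log2 scale in young mice (adjusted p = 5.88e-05) and was at 0.032 ± 0.19 (adjusted p = 0.907) in aged mice. In young and aged mice without young untreated mouse 2, Calr was at -1.02 and -0.11 and Hyou1 at -1.62 and -0.033.

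Among the DnaJ cochaperones, which load clients on BiP, Dnajb9 was at 30.5, 26.4 and 48.0 CPM in young untreated mice, 22.9 and 23.9 in aged untreated mice, 37.0, 49.0 and 38.6 in young caerulein mice and 53.9, 51.4 and 47.7 in aged caerulein mice. The aged caerulein libraries were above the aged untreated ones and the young groups overlapped. Dnajb9 rose in aged mice, 1.12 ± 0.23 (adjusted p = 0.00214), and was at 0.25 ± 0.20 (adjusted p = 0.31) in young mice, where leaving out young untreated mouse 3 gave a call (0.54, adjusted p = 0.0114). Library totals gave 0.80 (adjusted p = 0.00287) in young mice, called higher. Dnajb11 moved the other way. It was at 92.6, 57.1 and 94.8 CPM in young untreated mice, 88.0 and 85.3 in aged untreated mice, 25.1, 26.2 and 27.4 in young caerulein mice and 35.6, 30.9 and 38.0 in aged caerulein mice. All 6 caerulein libraries lay below the 5 untreated ones. The fall was -1.64 ± 0.18 (adjusted p = 2.13e-05) in young and -1.31 ± 0.19 (adjusted p = 0.000201) in aged mice, and it remained called with library totals (-1.07 and -0.70). Dnajc3, a cochaperone that also restrains kinases of the stress response, fell at both ages (-1.09 and -0.86) and, with library totals, in young mice alone (-0.54, against -0.24 in aged mice, adjusted p = 0.253). The values without young untreated mouse 2 were 0.029 and 1.06 for Dnajb9 and -1.89 and -1.38 for Dnajb11.

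Sdf2l1, a partner of BiP and Dnajb11, was at 53.7, 32.7 and 51.2 CPM in young untreated mice, 50.8 and 55.4 in aged untreated mice, 10.5, 11.9 and 10.2 in young caerulein mice and 28.6, 23.0 and 31.3 in aged caerulein mice. Young caerulein libraries were lowest, and aged caerulein libraries lay between them and the untreated ones, with young untreated mouse 2 just above. Sdf2l1 fell, with -2.07 ± 0.19 (adjusted p = 5.83e-06) in young and -0.94 ± 0.20 (adjusted p = 0.00248) in aged mice. With library totals the fall was called in young mice (-1.52) and was -0.32 in aged mice (adjusted p = 0.18). Creld2, a stress-induced lumenal protein with isomerase activity, was at 46.7, 32.5 and 52.2 CPM in young untreated mice, 41.8 and 51.3 in aged untreated mice, 17.1, 20.0 and 16.3 in young caerulein mice and 44.5, 38.8 and 79.1 in aged caerulein mice. The young caerulein libraries were all below the untreated ones, and aged caerulein mouse 3 was far above the other 2 of its group. Creld2 fell in young mice, -1.29 ± 0.26 (adjusted p = 0.00176), and was at 0.21 ± 0.29 (adjusted p = 0.575) in aged mice. Sdf2l1 was at -2.32 and -1.01, and Creld2 at -1.52 and 0.15, without young untreated mouse 2. Manf, a stress-induced secreted protein that binds BiP, fell in young mice (-0.83) and was at -0.26 in aged mice (adjusted p = 0.329; -0.32 and called without young untreated mouse 2). The span of Manf overlaps those of Rbm15b on the same strand and Dcaf1 on the other, with mean counts of 473 and 335 beside its own 1125. Overlaps were taken over whole gene spans, and the strand setting of the counting is not given in the sources used here. Whether these genes share reads therefore cannot be told.

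Disulfide isomerases and related proteins. Of the 11 genes, 2 higher, 6 lower and 3 not passed were found in young mice (median -0.51) and 2 higher, 4 lower and 5 not passed in aged mice (median -0.32), and with library totals 2 higher, 2 lower and 7 not passed and 4 higher, 0 lower and 7 not passed. Leaving out young untreated mouse 2 gave 1 higher, 8 lower and 2 not passed in young and 2 higher, 6 lower and 3 not passed in aged mice. The shares of all genes called higher and lower were 27.5% and 24.7% in young and 27% and 21.2% in aged mice. They were 37.7% and 8.99%, and 38.6% and 7.61%, with library totals. Without young untreated mouse 2 they were 30.8% and 26.8%, and 30.7% and 27.6%. Pdia4, a multi-domain isomerase also known as Erp72, was at 22.4, 23.8 and 25.1 CPM in young untreated mice, 18.8 and 16.5 in aged untreated mice, 6.45, 5.89 and 4.31 in young caerulein mice and 10.9, 8.43 and 11.3 in aged caerulein mice. All caerulein libraries were below all untreated ones and the young caerulein libraries were lowest. Pdia4 fell in young mice, -2.09 ± 0.17 (adjusted p = 1.89e-06), within the SE of Sdf2l1 (-2.07), and was at -0.79 ± 0.18 (adjusted p = 0.00334) in aged mice. With library totals the fall was called in young mice (-1.59) and was -0.18 in aged mice (adjusted p = 0.635), and without young untreated mouse 2 it was -2.14 and -0.85, when Sdf2l1 (-2.32) and Derl3 (-2.23) were lower in young mice. Its relative Pdia5, a low-level isomerase, went the opposite way. Pdia5 was at 3.43, 3.56 and 3.74 CPM in young untreated mice, 3.28 and 2.27 in aged untreated mice, 13.7, 12.3 and 8.84 in young caerulein mice and 12.5, 10.6 and 11.8 in aged caerulein mice. The caerulein libraries all lay above the untreated ones. The rise was 1.70 ± 0.19 (adjusted p = 2.5e-05) in young and 2.09 ± 0.23 (adjusted p = 2.67e-05) in aged mice, or 2.21 and 2.69 with library totals and 1.65 and 2.04 under TMM without young untreated mouse 2.

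Txndc5, a thioredoxin-fold protein of the lumen, was at 59.4, 48.6 and 66.2 CPM in young untreated mice, 51.9 and 58.4 in aged untreated mice, 75.8, 91.2 and 72.1 in young caerulein mice and 103, 98.9 and 87.0 in aged caerulein mice. Both caerulein groups were above their untreated groups. Txndc5 rose by 0.46 ± 0.14 (adjusted p = 0.0204) in young mice, a call that was lost without young caerulein mouse 2 (0.35, adjusted p = 0.0905) as well as without young untreated mouse 2, and by 0.81 ± 0.17 (adjusted p = 0.00195) in aged mice. Txndc11, a membrane thioredoxin-like protein of the degradation pathway, was at 55.4, 38.6 and 56.4 CPM in young untreated mice, 46.6 and 50.1 in aged untreated mice, 22.7, 25.2 and 23.3 in young caerulein mice and 28.4, 26.1 and 27.4 in aged caerulein mice. All caerulein libraries were below all untreated ones. The fall was -1.08 ± 0.14 (adjusted p = 8.9e-05) in young and -0.83 ± 0.16 (adjusted p = 0.00116) in aged mice, and with library totals it was called in young mice alone (-0.53, against -0.21). Without young untreated mouse 2 it was -1.29 and -0.89, and Txndc5 in aged mice 0.74. Txndc5 and Txndc11 both hold the UPRE letters, and they went opposite ways.

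The major isomerases were lower in young mice by modest amounts. P4hb, the classical protein disulfide isomerase, was at -0.52 ± 0.19 and called in young mice (adjusted p = 0.041), -0.32 ± 0.21 and not called in aged mice, and near 0 with library totals in young mice (0.049). Pdia3, the partner of the lectin chaperones, fell in young mice (-0.51) and was at -0.33 in aged mice. Pdia6 was at -0.49 in young mice, called, and 0.014 in aged mice. The calls of P4hb and Pdia6 in young mice were lost on leaving out any 1 of the other 10 libraries (log2 between -0.54 and -0.37 over both genes), and were kept without young untreated mouse 2 (-0.79 and -0.76). Erp27 fell at both ages (-0.73 and -0.90) under TMM and at neither with library totals (-0.16 and -0.29), and its aged call ended without aged untreated mouse 2 (adjusted p = 0.053). Erp29 and Erp44, which assist folding and retention of secretory proteins, did not pass under TMM at either age, with values from -0.28 to -0.055. Pdia2, an isomerase known for its pancreatic expression, was at -0.86 (adjusted p = 0.0524) in young and -1.01 (adjusted p = 0.0433) in aged mice. Without young untreated mouse 2 the young value was -1.15 (adjusted p = 0.00464). The aged call was lost on leaving out any 1 of 6 libraries, and aged untreated mouse 3 alone moved it to -0.43 (adjusted p = 0.523). Pdia2 held a mean of 150 counts, and its span overlaps that of Arhgdig on the same strand, which held 2614. Reads of Arhgdig may be part of its value, which whole spans cannot show. The span of Erp29 overlaps that of Naa25 on the other strand (332 counts beside 466). Smaller overlaps were those of Syvn1 with Mrpl49 (65.8 beside 1106), Txndc11 with Snn (78.5 beside 708) and Derl2 with Mis12 (77.6 beside 263).

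Translocation. Of the 9 genes of the channel, the translocon-associated complex and signal peptidase, 1 higher, 5 lower and 3 not passed were found in young mice (median -0.51) and 1 higher, 6 lower and 2 not passed in aged mice (median -0.66). With library totals the counts were 1 higher, 2 lower and 6 not passed, and 2 higher, 2 lower and 5 not passed. They were 1 higher, 8 lower and 0 not passed, and 1 higher, 7 lower and 1 not passed, under TMM without young untreated mouse 2. The shares of all genes called higher and lower were 27.5% and 24.7% in young and 27% and 21.2% in aged mice. They were 37.7% and 8.99%, and 38.6% and 7.61%, with library totals. Without young untreated mouse 2 they were 30.8% and 26.8%, and 30.7% and 27.6%. Sec61a1, the pore-forming subunit, was at 113, 86.7 and 127 CPM in young untreated mice, 112 and 106 in aged untreated mice, 187, 203 and 178 in young caerulein mice and 280.4, 259.7 and 229 in aged caerulein mice. The caerulein libraries were all higher than the untreated ones. Sec61a1 rose by 0.79 ± 0.15 (adjusted p = 0.00113) in young and 1.24 ± 0.17 (adjusted p = 0.000152) in aged mice, and was at 1.34 and 1.84 with library totals and 0.60 and 1.17 without young untreated mouse 2. Its small partners in the channel were not called higher under either scaling. Sec61b was at -0.39 ± 0.16 (adjusted p = 0.0608) in young mice and fell in aged mice, -0.68 ± 0.18 (adjusted p = 0.00845), and Sec61g was at -0.27 and -0.28, not called. The aged call of Sec61b ended without aged untreated mouse 2 (adjusted p = 0.0697) or 3 (0.0565), and in young mice it was called without young untreated mouse 2 (-0.64). With library totals Sec61b was at 0.16 and -0.067 and Sec61g at 0.30 and 0.33, none of them called.

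Ssr1, a subunit of the translocon-associated protein complex, was at 89.4, 64.9 and 101 CPM in young untreated mice, 98.1 and 90.9 in aged untreated mice, 32.2, 35.2 and 24.2 in young caerulein mice and 43.3, 42.3 and 32.2 in aged caerulein mice. Spcs2, a subunit of signal peptidase, was at 66.7, 48.7 and 72.2 CPM in young untreated mice, 73.9 and 66.2 in aged untreated mice, 29.8, 31.3 and 23.8 in young caerulein mice and 35.5, 29.2 and 29.9 in aged caerulein mice. For both genes every caerulein library was below every untreated one. Ssr1 fell by 1.48 ± 0.20 on the log2 scale in young mice (adjusted p = 8.75e-05) and was at -1.27 ± 0.21 (adjusted p = 0.000489) in aged mice. Spcs2 was at -1.14 ± 0.17 (adjusted p = 0.000177) and -1.15 ± 0.18 (adjusted p = 0.000342), and both genes remained called with library totals (-0.92 and -0.67 for Ssr1, -0.59 and -0.54 for Spcs2). Leaving out young untreated mouse 2 gave -1.69 and -1.33 for Ssr1 and -1.35 and -1.21 for Spcs2. The other subunits of the same complexes fell less or did not pass. Ssr2 was at -0.67 and -0.57, Ssr4 at -0.51 and -0.66 and Spcs3 at -0.53 and -0.72, all called under TMM and none with library totals. Under TMM the aged call of Ssr2 ended without aged untreated mouse 2 or 3 or aged caerulein mouse 2 or 3 (adjusted p between 0.0585 and 0.13), that of Ssr4 without aged untreated mouse 2 (0.0502) or 3 (0.0506) and that of Spcs3 without aged untreated mouse 2 (0.0825), and the young call of Spcs3 without young untreated mouse 1 or 3 or young caerulein mouse 3 (0.0536 to 0.0637). Ssr3 was at -0.35 and 0.17 under TMM, called at neither age, and with library totals was called in aged mice (0.77).

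Degradation. Of the 10 genes, 0 higher, 7 lower and 3 not passed were found in young mice (median -0.78) and 2 higher, 6 lower and 2 not passed in aged mice (median -0.62), and with library totals 3 higher, 4 lower and 3 not passed and 4 higher, 3 lower and 3 not passed. Under TMM and without young untreated mouse 2 there were 0 higher, 7 lower and 3 not passed in young and 3 higher, 6 lower and 1 not passed in aged mice. The shares of all genes called higher and lower were 27.5% and 24.7% in young and 27% and 21.2% in aged mice. They were 37.7% and 8.99%, and 38.6% and 7.61%, with library totals. Without young untreated mouse 2 they were 30.8% and 26.8%, and 30.7% and 27.6%. Sel1l, the membrane adaptor that carries substrates to the Hrd1 ligase, was at 592, 314 and 549.7 CPM in young untreated mice, 614 and 672 in aged untreated mice, 165, 149 and 173 in young caerulein mice and 128, 94.7 and 109 in aged caerulein mice. Every caerulein library was below every untreated one, and the aged caerulein libraries were below the young ones. Sel1l fell, with -1.58 ± 0.22 (adjusted p = 0.000125) in young mice and had the largest fall of the 45 genes in aged mice, -2.54 ± 0.24 (adjusted p = 8.19e-06). It remained called under all 20 alternatives, with -1.004 and -1.93 for library totals and -1.86 and -2.61 without young untreated mouse 2. Its partner ligase Syvn1 was at 55.4, 42.4 and 63.2 CPM in young untreated mice, 50.2 and 52.2 in aged untreated mice, 39.9, 43.6 and 34.4 in young caerulein mice and 76.1, 67.5 and 78.0 in aged caerulein mice. The aged caerulein libraries were above all others and the young groups overlapped. Syvn1 was at -0.45 ± 0.15 (adjusted p = 0.0281) in young mice, where the call was lost on leaving out any 1 of 6 of the 11 libraries (adjusted p between 0.0587 and 0.108) and the value was 0.096 with library totals. In aged mice it was at 0.53 ± 0.17 (adjusted p = 0.025) and 1.15 with library totals, and under TMM that call was lost without aged untreated mouse 2 or 3 or aged caerulein mouse 1 or 3 (log2 between 0.48 and 0.58).

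Derl3, the derlin of secretory tissues, was at 113, 55.2 and 108 CPM in young untreated mice, 102 and 100.0 in aged untreated mice, 22.1, 21.7 and 29.3 in young caerulein mice and 57.8, 49.1 and 57.0 in aged caerulein mice. Young caerulein libraries were below every other library. Aged caerulein libraries were below the aged untreated ones, and young untreated mouse 2 lay within their range. Derl3 was at -1.92 ± 0.24 (adjusted p = 6.05e-05) in young and -0.89 ± 0.26 (adjusted p = 0.014) in aged mice. With library totals the fall was called in young mice (-1.34) and was -0.27 in aged mice (adjusted p = 0.26), and under TMM the call in aged mice was lost without aged untreated mouse 2 (-0.86, adjusted p = 0.0834) or mouse 3 (-0.88, adjusted p = 0.0758). Derl1, the broadly expressed relative, did not pass under TMM (0.20 and 0.26) and was called higher with library totals (0.73 and 0.87). Derl2 fell at both ages under TMM (-0.84 and -0.59) and at neither with library totals. Its aged call ended without aged untreated mouse 2 (adjusted p = 0.0763) or 3 (0.052). Edem3, one of the lectins that trim mannose from misfolded glycoproteins, was at 96.6, 64.8 and 104 CPM in young untreated mice, 91.1 and 89.7 in aged untreated mice, 94.5, 106 and 97.0 in young caerulein mice and 141, 141 and 122 in aged caerulein mice. The aged caerulein libraries were above the aged untreated ones and the young groups overlapped. Edem3 rose in aged mice, 0.57 ± 0.18 (adjusted p = 0.0234), and was at 0.17 in young mice. The call in aged mice was lost without aged untreated mouse 2 or 3 or aged caerulein mouse 1 or 2 (log2 between 0.54 and 0.60), and with library totals Edem3 was called higher at both ages (0.72 and 1.18). Its relatives fell at both ages, Edem1 at -0.86 and -0.64 and Edem2 at -0.72 and -1.08, as did the lectin Os9 at -1.11 and -1.06. Os9 was also called lower at both ages with library totals (-0.55 and -0.44). The aged call of Edem1 ended without aged untreated mouse 2 (adjusted p = 0.0771). Herpud1 was at 0.31 and 0.47 under TMM, not called, and was called higher with library totals (0.89 and 1.10). Under TMM without young untreated mouse 2, Syvn1 was at -0.65 and 0.46, Derl3 at -2.23 and -0.95 and Edem3 at -0.067 and 0.51.

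Sensors and export. Ern1 encodes Ire1, the kinase and RNase that splices Xbp1. It was at 52.3, 33.1 and 54.7 CPM in young untreated mice, 47.0 and 50.3 in aged untreated mice, 222, 207 and 225 in young caerulein mice and 212, 198 and 176 in aged caerulein mice. Every caerulein library was above every untreated one, by a wide margin at both ages. Ern1 had the largest rise of the 45 genes in young mice, 2.22 ± 0.18 (adjusted p = 2.2e-06), and was at 2.01 ± 0.21 (adjusted p = 1.66e-05) in aged mice, or 2.78 and 2.62 with library totals and 1.97 and 1.94 without young untreated mouse 2. Per length it went from rank 40 of the 45 genes in young untreated mice to 12 in young caerulein mice. Xbp1, its target, was at 340.4, 194 and 283 CPM in young untreated mice, 356 and 338 in aged untreated mice, 347, 437 and 404 in young caerulein mice and 449, 504 and 407 in aged caerulein mice. The caerulein libraries were above the untreated ones of their age. Xbp1 was at 0.54 ± 0.19 (adjusted p = 0.034) in young and 0.39 ± 0.21 (adjusted p = 0.164) in aged mice and at 1.10 and 0.99 with library totals, called at both ages on that scale. Gene-level counts do not tell spliced from unspliced Xbp1. Leaving out young untreated mouse 2 ended the call in young mice (0.29, adjusted p = 0.0649) and gave one in aged mice (0.32, adjusted p = 0.0457). In young mice it was also lost without young untreated mouse 3, aged untreated mouse 2 or 3, or young caerulein mouse 2 or 3 (log2 between 0.46 and 0.56). The sensor Atf6 was at 0.42 ± 0.17 (adjusted p = 0.0523) and 0.33 ± 0.19 (adjusted p = 0.178) under TMM and called higher at both ages with library totals (0.98 and 0.94). Tmed6, a p24 family cargo receptor enriched in secretory tissue, was at 261, 141 and 273 CPM in young untreated mice, 292 and 281 in aged untreated mice, 93.1, 96.0 and 102 in young caerulein mice and 119, 118 and 109.7 in aged caerulein mice. Every caerulein library was below every untreated one, and the fall of -1.21 ± 0.21 (adjusted p = 0.00055) in young and -1.31 ± 0.22 (adjusted p = 0.000602) in aged mice remained called with library totals (-0.64 and -0.70) and without young untreated mouse 2 (-1.51 and -1.37).

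**Figure D3:**
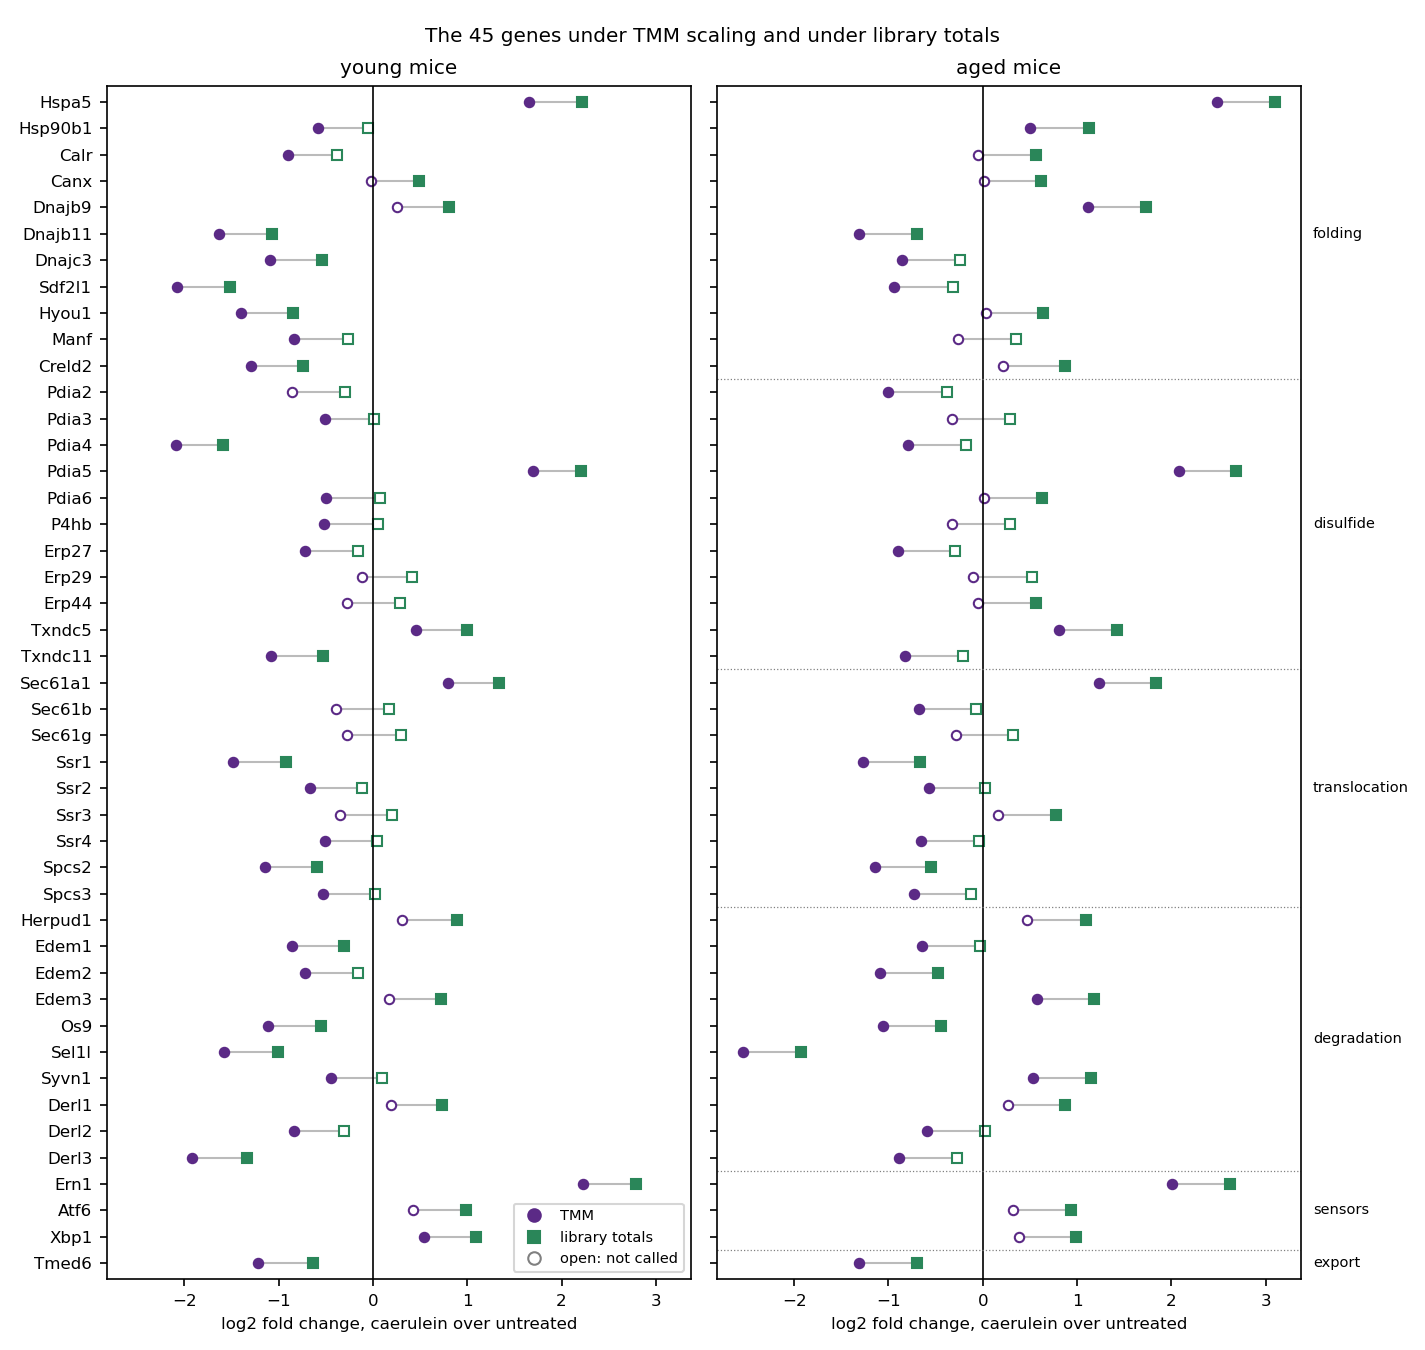
Log2 fold change of caerulein over untreated mice for each of the 45 genes under TMM (circles) and library totals (squares), in young (left) and aged mice (right), with filled marks called at adjusted p below 0.05 and no error bars. Library totals move every gene to the right by a nearly constant step, which leaves Hspa5 and Ern1 far right, takes Pdia3, Pdia6 and P4hb from called lower to near 0 in young mice, and keeps Sel1l left of 0 at both ages.

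Read together on the 2 scales, the 45 genes fell into those whose call held and those whose call turned on the scaling. Between TMM and library totals the median of all tested genes moved by 0.50 in young and 0.61 in aged mice. In young mice 12 genes were called higher and 14 lower with library totals (37.7% and 8.99% of all genes), and in aged mice 20 and 7 (38.6% and 7.61%). Those called lower at both ages with library totals were Dnajb11, Ssr1, Spcs2, Os9, Sel1l and Tmed6, 6 genes that were also called lower at both ages under TMM. With library totals Hyou1 and Creld2 were called lower in young mice (-0.84 and -0.74) and higher in aged mice (0.64 and 0.87), as Hsp90b1 and Syvn1 were under TMM. On both scales Ern1, Pdia5 and Hspa5 had the 3 highest values at both ages.

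Age without treatment. In untreated mice 0 of the 45 genes differed between aged and young under TMM, where 13 of 14113 genes did (0.0921%), and 0 did with library totals (0.0213% of all genes), without young untreated mouse 2 (0.405%), with both changes (0.228%) or with DESeq2 (63 genes called in all). At an unadjusted p below 0.05 there were 4 of the 45 genes and 9.35% of all genes. They were Dnajb9 (-0.57 ± 0.23), Pdia3 (-0.35 ± 0.13), Pdia4 (-0.43 ± 0.18) and Spcs3 (0.42 ± 0.18), each with adjusted p = 0.531, and were picked after their values were seen. The median of the 45 log2 differences was 0.088 and their range -0.57 to 0.42. Hspa5 was at -0.17 ± 0.21, Ern1 at 0.061 ± 0.19 and Sel1l at 0.41 ± 0.24.

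Age under caerulein. In caerulein-treated mice 8 of the 45 genes were higher in aged than in young mice and 0 lower, where 2.46% of all genes were called higher and 1.27% lower. They were the chaperones and cochaperones Hsp90b1, Calr, Sdf2l1, Hyou1 and Creld2, the isomerase Pdia4, and the degradation genes Syvn1 and Derl3. In each of the 8 the 3 aged libraries were all above the 3 young ones, as the values in every library above show. That separation held in 25 of the 45 genes and 17.3% of all genes, and the reverse in 3 and 13.6%. Creld2 had the largest difference, 1.60 ± 0.26 (adjusted p = 0.00817), with 17.1, 20.0 and 16.3 CPM in young and 44.5, 38.8 and 79.1 in aged mice. Sdf2l1 was at 1.34 ± 0.19 (adjusted p = 0.00357), Hyou1 at 1.23 ± 0.17 (adjusted p = 0.00382) and Derl3 at 1.17 ± 0.24 (adjusted p = 0.0219). Hsp90b1 was at 0.93 ± 0.13, Syvn1 at 0.91 ± 0.15, Pdia4 at 0.87 ± 0.16 and Calr at 0.61 ± 0.12, with adjusted p between 0.00393 and 0.0178. Hspa5, the most abundant of the chaperones, was at 0.66 ± 0.19 (adjusted p = 0.0795) and did not pass.

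With library totals 6 of the 8 were called (0.701% of all genes were higher and 0.822% lower), with values from 0.80 for Syvn1 to 1.52 for Creld2, while Calr and Pdia4 were at 0.49 (adjusted p = 0.185) and 0.76 (adjusted p = 0.189). Sel1l was called lower on that scale, -0.67 (adjusted p = 0.0361), beside -0.56 ± 0.21 (adjusted p = 0.195) under TMM. Hsp90b1, Sdf2l1 and Hyou1 stayed called without any 1 of the 11 libraries. Without young caerulein mouse 3 only these 3 did (0.776% of all genes were higher), and 5 genes were called without aged caerulein mouse 1 (1.25%) or mouse 3 (1.21%). The library of young untreated mouse 2 belongs to neither treated group and bears on the test through the shared spread and scaling. Without it 18 genes were called higher and 2 lower, where 7.85% and 6.31% of all genes were. The 10 added genes that were higher included Hspa5 (0.64, adjusted p = 0.00102), Pdia6 (0.60) and Edem1 (0.49), and the 2 lower genes were Sel1l (-0.58) and Edem2 (-0.43). Library totals without that mouse gave 11 higher and 2 lower (4.13% and 7% of all genes). In the folding class all 11 genes were above 0 on both scales, with medians of 0.61 and 0.49, and in the sensor class Ern1, Atf6 and Xbp1 were not called on either.

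Of the marker sums in caerulein mice, those of B and plasma cells and of T cells were higher and those of neutrophils lower in every aged library. Those of macrophages, endocrine, acinar and ductal cells overlapped between the ages. So did those of endothelial cells, fibroblasts and stellate cells, adipocytes, and lymph node stroma and follicle. Summed B and plasma cell markers, which matter here because plasma cells also express many of these genes, were at 0.185 to 0.338 CPM of the library total in young and 4.43 to 5.54 in aged caerulein mice. T cell markers were at 0.124 to 0.244 CPM and 0.562 to 0.597 CPM in the same order. Neutrophil markers were at 2.53 to 21.7 and 1.05 to 1.55, macrophage markers at 23.3 to 40.2 and 38.9 to 64.7, and endocrine markers at 181 to 2732 and 183 to 2525. Summed acinar markers were at 301623 to 321158 and 287097 to 305354 CPM. Of the acinar, B and plasma cell and neutrophil markers that could be tested, 0 of 8, 0 of 2 and 0 of 4 were called between the ages by edgeR, and 1 of 6 macrophage markers and 1 of 6 ductal markers were called higher in aged mice. Summed ductal markers were at 327 to 357 CPM in young and 278 to 392 in aged caerulein mice. Each of the 8 B and plasma cell markers and of the 6 T cell markers was at 0 in at least 1 library, and 0 of the T cell markers could be tested. The part of these cells in the differences was not tested.

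**Figure D4:**
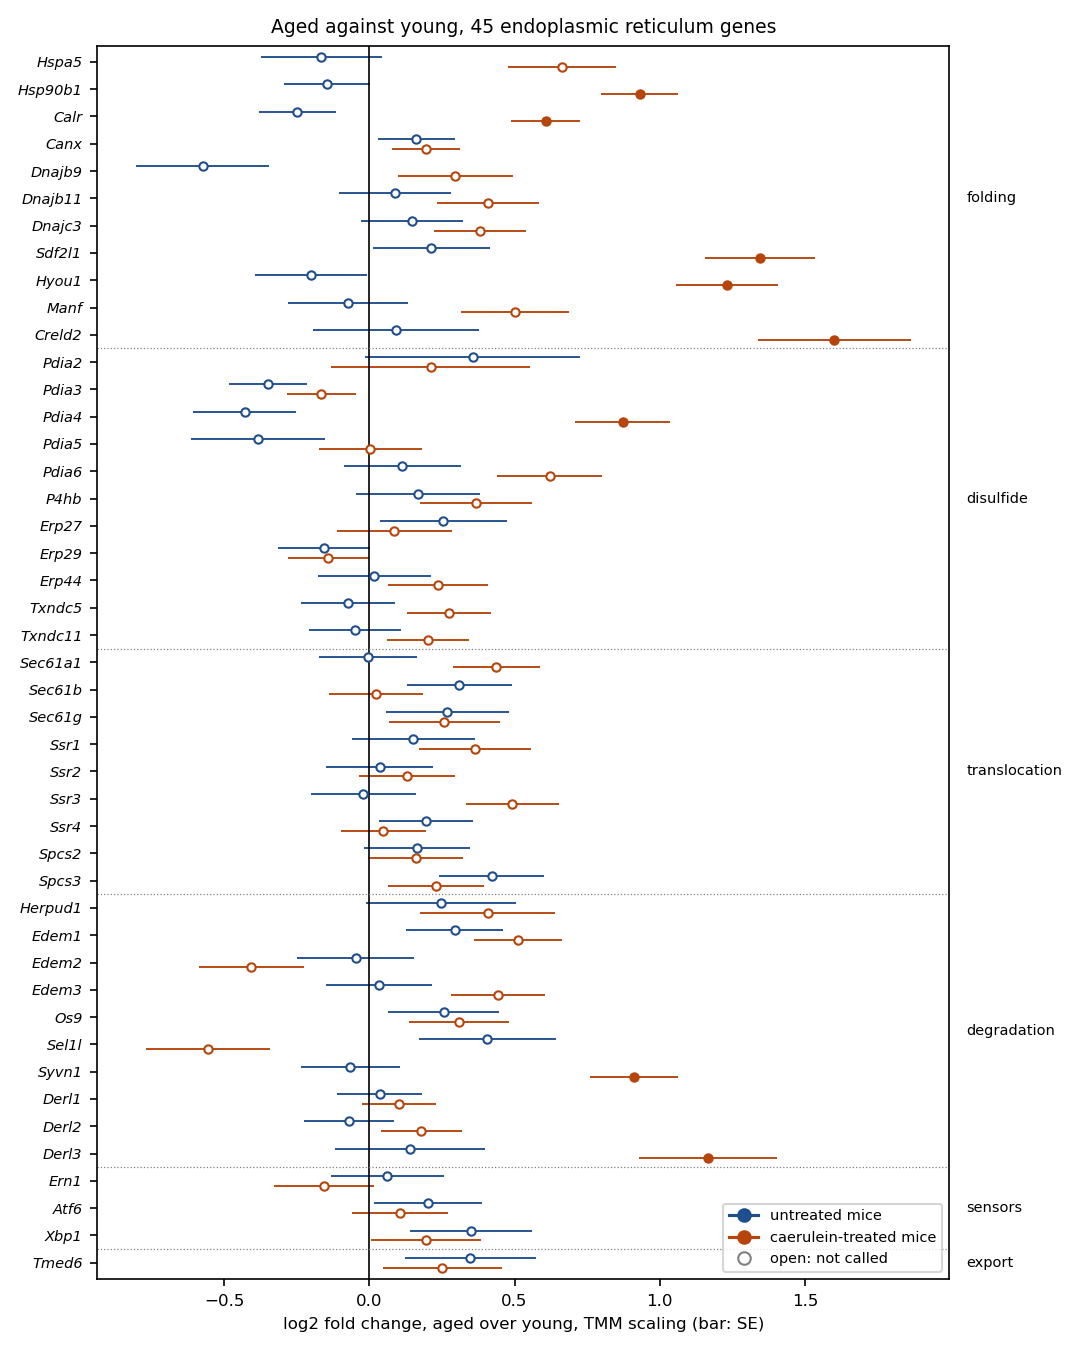
Log2 fold change of aged over young mice under TMM (horizontal axis, bars are SE of the edgeR fit) for each of the 45 genes, in untreated (n = 2 against 3) and caerulein-treated mice (n = 3 against 3), with filled points called at adjusted p below 0.05. No untreated point is filled, and the 8 filled points of treated mice run from Calr at 0.61 to Creld2 at 1.60.

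The test of whether the response to caerulein differed by age is the difference of the log2 fold changes, aged minus young. It uses the same libraries as the comparisons above and is not independent of them. With all 11 libraries it called 0 of the 45 genes under TMM and 0 with library totals, where 0.0142% and 0% of all genes were called. At an unadjusted p below 0.05 there were 11 of the 45 genes, 10 of them with the larger value in aged mice, beside 12.5% of all genes. Hyou1 was at 1.43 ± 0.26 (adjusted p = 0.0816), Pdia4 at 1.30 ± 0.24 (adjusted p = 0.0816) and Hsp90b1 at 1.08 ± 0.20 (adjusted p = 0.0816). Creld2 was at 1.51 ± 0.39 (adjusted p = 0.181) and Sel1l, in the other direction, at -0.96 ± 0.32 (adjusted p = 0.273). The outcome changed with the processing. DESeq2 called 7 genes, all with the larger value in aged mice (1.72% of all genes with an adjusted p were higher): Hsp90b1, Calr, Sdf2l1, Hyou1, Creld2, Pdia4 and Syvn1. Without a filter on low counts those 7 and Derl3 were called (2.02% of all genes higher), and with a strict filter Hsp90b1, Calr, Hyou1 and Pdia4 (0.566%). Without young untreated mouse 2 the difference was called higher in 13 genes and lower in 1, where 1.48% and 0.811% of all genes were. Hyou1 was then at 1.59 (adjusted p = 0.00168), Hsp90b1 at 1.15 (adjusted p = 0.00536) and Hspa5 at 1.01 (adjusted p = 0.00752), and Sel1l at -0.74 (adjusted p = 0.0496). When library totals were used and that library was left out, 6 genes were called higher and 0 lower (0.383% and 0.509% of all genes), namely Hspa5, Hsp90b1, Sdf2l1, Hyou1, Syvn1 and Derl3. Leaving out any 1 of the other 10 libraries gave 0. Hsp90b1 and Hyou1 were called in each of these 5 alternatives.

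**Figure D5:**
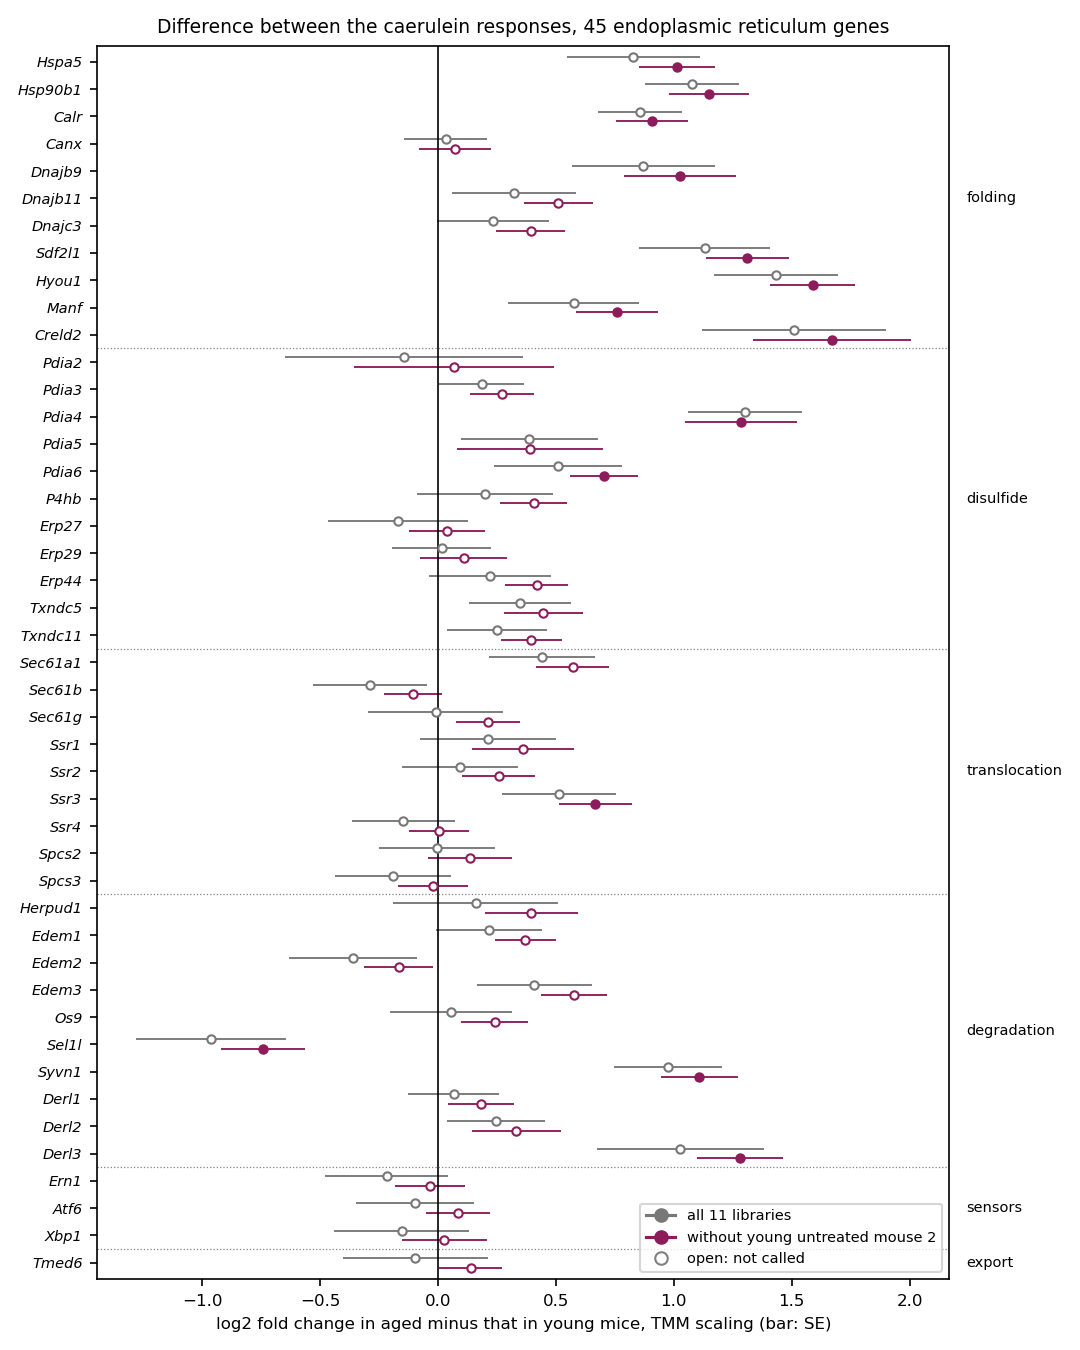
Difference between the caerulein responses, the log2 fold change in aged minus that in young mice under TMM (horizontal axis, bars are SE of the edgeR fit), for each of the 45 genes with all 11 libraries and without young untreated mouse 2. No point is filled, that is called at adjusted p below 0.05, with all libraries, and 14 are filled without that mouse, of which Sel1l alone lies left of 0.

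The 9 genes whose promoters hold the ERSE letters listed above were set beside the 27 whose promoters do not. In young mice 1 of the 9 rose after caerulein (Hspa5), 7 fell and 1 did not pass, and of the 27 others 4 rose, 15 fell and 8 did not pass. Over all genes 27.5% were called higher and 24.7% lower. In aged mice the counts were 3 higher (Hspa5, Hsp90b1 and Syvn1), 2 lower and 4 not passed among the 9, and 5, 15 and 7 among the 27. There 27% of all genes were called higher and 21.2% lower. On library totals the 9 gave 2 higher and 3 lower in young and 7 higher and 0 lower in aged mice, and the 27 gave 7 and 10 in young and 9 and 7 in aged mice. On that scale 37.7% of all genes were called higher and 8.99% lower in young mice, and 38.6% and 7.61% in aged mice. Between treated aged and young mice 5 of the 9 and 2 of the 27 were called higher (2.46% of all genes). With all 11 libraries the difference of responses was called in 0 of the 9 and 0 of the 27, under TMM (0.0142% of all genes) and with library totals (0%). Under TMM without young untreated mouse 2 it was called higher in 7 of the 9 and 4 of the 27 (1.48% of all genes). It was called lower there in 0 of the 9 and 1 of the 27 (0.811%). These are counts with no test, and no binding was measured.

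A wider list of 101 other genes of the same pathway was set beside the 45. Under TMM, of the 100 that were tested, 19 higher, 43 lower and 38 not passed were found in young and 23 higher, 35 lower and 42 not passed in aged mice, and with library totals 46 higher, 17 lower and 37 not passed and 47 higher, 13 lower and 40 not passed. Over all genes 27.5% were higher and 24.7% lower in young and 27% and 21.2% in aged mice under TMM, and 37.7% and 8.99%, and 38.6% and 7.61%, with library totals. Without young untreated mouse 2 the list gave 19 higher, 51 lower and 30 not passed, and 31 higher, 41 lower and 28 not passed, under TMM. The counts by kind of gene that follow are under TMM with all libraries, and those with library totals close the paragraph. Of 17 other degradation genes there were 8 higher and 3 lower in young and 9 higher and 4 lower in aged mice. The ubiquitin-conjugating enzyme Ube2j1 was at 1.48 ± 0.15 and 1.22 ± 0.17, and the mannosidase Man1b1 at 1.09 ± 0.10 and 1.03 ± 0.12. Other folding and oxidation genes were mostly lower, 11 of 17 in young and 10 in aged mice. The prolyl isomerase Fkbp2 fell (-1.34 and -1.71), while Ero1l, the oxidase that recharges disulfide isomerases, rose (1.65 and 1.47). N-glycosylation genes gave 2 higher, 9 lower and 4 not passed in young and 2 higher, 7 lower and 6 not passed in aged mice, with the oligosaccharyltransferase subunits Ostc (-0.99 and -0.78) and Tmem258 (-0.82 and -0.73) lower at both ages. Of 19 other targeting and translocation genes 1 rose and 8 fell in young mice and 3 and 7 in aged mice, and the channel partners Tram1 (-1.08 and -1.46) and Sec62 (-1.01 and -0.97) both fell. Among other sensors and factors Atf4, the translational-control factor downstream of Perk, rose (1.97 and 2.08) and the secretory factor Creb3l1 fell (-2.16 and -2.07), where 4 rose and 5 fell of the 12 tested in young mice and 3 and 3 in aged mice. Of 20 coat and cargo receptor genes 3 rose and 7 fell in young mice and 4 and 4 in aged mice, and the COPII coat subunits Sec24a (1.40 and 1.69) and Sec24b (0.48 and 1.09) rose. With library totals the log2 fold change of each of the 12 named genes kept its sign at both ages, which is not the same as a call. Ostc and Tmem258 were not called lower in aged mice on that scale. On that scale higher and lower genes numbered 12 and 3 in young and 12 and 2 in aged mice for degradation, 3 and 4 in young and 5 and 7 in aged mice for folding and oxidation, and 5 and 2 in young and 5 and 0 in aged mice for N-glycosylation. They numbered 8 and 3 in young and 7 and 2 in aged mice for targeting and translocation, 7 and 3 in young and 6 and 1 in aged mice for sensors and factors, and 11 and 2 in young and 12 and 1 in aged mice for coats and cargo receptors.

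In the authors' deposited tables of their own comparisons, at the authors' adjusted p below 0.05, 4 of the 45 genes are higher and 26 lower after caerulein in young mice, and 12 higher and 22 lower in aged mice. All 45 are in each of the authors' deposited tables, and at that threshold 0 differ between untreated ages, and 20 are higher and 2 lower in aged than young treated mice. The share of all genes called in those tables was not counted, so whether these counts are unusual cannot be told.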

How the data were processed

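Reads of poly(A)-captured RNA were sequenced as 150 bp pairs, per the labels' protocols, and HISAT2 2.0.5, featureCounts 1.5.0-p3 and build mm10 are named in the submitters' processing notes. The deposited count table holds whole-number counts per gene, and the deposited FPKM values use a denominator that is constant within a library. Fold changes on the log2 scale and p-values were also deposited by the authors and serve only for the counts credited to them.

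Counts of 11 libraries in 4 groups were fitted together with edgeR 4.0.16 (R 4.3.3) after filterByExpr and TMM scaling, without a replicate block. The quasi-likelihood test was two-sided, Benjamini-Hochberg adjustment covered every tested gene, and the SE is the absolute log2 fold change over the root of F. The fit was tested on simulated counts with the same dispersion for every gene and changes in a small set of genes of a single group. Those counts held no outlying library and no broad change after treatment, so the test does not cover these conditions. The labels number the mice and say no more of how they were kept, so p-values measure the spread between these libraries.

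The 20 alternatives were library totals, DESeq2 size factors, TMM without genes above 1% of counts, no filter, a strict filter (10 CPM in 2 libraries), DESeq2 1.42.0, only the groups compared, a replicate block, each library left out, and library totals without young untreated mouse 2. The members and gene lists were chosen with earlier results of these data known. Values in every library are given for Hspa5, Hsp90b1, Xbp1 and Sel1l, for up to 2 genes in each direction per class with the smallest p in either caerulein comparison, and for genes called in an age comparison. Up to 2 genes per list of other endoplasmic reticulum genes were named by smallest p.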

Additional observations from a re-analysis of the deposited data

Results flagged for a closer look

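By edgeR's test of the difference itself under TMM, 14 genes responded to caerulein differently at the 2 ages when young untreated mouse 2 was left out. Over all genes 1.48% were then called higher and 0.811% lower. With all 11 libraries that fit called 0 of the 45. Other processing of all 11 called 7 with DESeq2 (1.72% of all genes higher), 8 with no filter (2.02%) and 4 with a strict filter (0.566%). The values are log2 fold changes in aged minus young mice without that mouse. Among chaperones and cochaperones the difference was 1.01 for Hspa5, 1.15 for Hsp90b1, 0.907 for Calr, 1.03 for Dnajb9, 1.31 for Sdf2l1, 1.59 for Hyou1, 0.76 for Manf and 1.67 for Creld2. Among isomerases it was 1.28 for Pdia4 and 0.705 for Pdia6, and for the translocon-associated subunit Ssr3 it was 0.666. Among degradation genes it was 1.11 for Syvn1, 1.28 for Derl3 and -0.742 for Sel1l, the last being lower in aged mice.

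Hsp90b1 was also called in opposite directions at the 2 ages with all libraries, -0.579 in young and 0.498 in aged mice. The difference itself, 1.08 ± 0.20, had an adjusted p = 0.0816 in edgeR's test with all libraries and 0.00536 without young untreated mouse 2.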

How the results depend on the processing

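With library totals the genes called after caerulein were 12 higher and 14 lower in young mice (37.7% and 8.99% of all genes). They were 20 and 7 in aged mice (38.6% and 7.61%), and 1 was lower in aged than young treated mice (0.822%). When young untreated mouse 2 was also left out these became 13 and 14 (52.9% and 7.95%), 21 and 8 (48.9% and 10.5%), and 2 (7%). The difference of responses was then called higher in 6 genes (0.383%). That difference was called higher in 8 genes with no filter (2.02%), 4 with a strict filter (0.566%) and 7 with DESeq2 (1.72%). With only the groups compared, 18 genes were higher and 2 lower in aged treated mice, where 7.81% and 5.75% of all genes were. Single libraries were left out in turn, and the ranges here omit the 2 aged untreated ones, whose group would keep 1 library. In young mice 4 to 7 genes were higher and 23 to 32 lower (24.5% to 30.8% and 19.2% to 26.8% of all genes). In aged mice 7 to 12 were higher and 18 to 24 lower (24.4% to 30.7% and 18% to 27.6%). Between treated ages 3 to 18 were higher and 0 to 2 lower (0.776% to 7.85% and 0.427% to 6.31%). The difference gave 0 to 13 higher and 0 to 1 lower (0% to 1.48% and 0% to 0.811%), and untreated ages gave 0 (0.0433% to 0.258% higher and 0.00724% to 0.147% lower).

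Among genes called under TMM with all libraries or under the alternative, values that changed sign in young mice with library totals were Canx 0.49, Pdia3 0.015, Pdia6 0.076, P4hb 0.049, Ssr4 0.039, Spcs3 0.023 and Syvn1 0.096, and with that mouse also left out Hsp90b1 0.069, Canx 0.66, Pdia3 0.12, Pdia6 0.028, Erp29 0.50, Ssr4 0.052, Spcs3 0.014 and Syvn1 0.14. In aged mice they were Calr 0.57, Erp44 0.56, Ssr2 0.027 and Derl2 0.023 with library totals, Calr 0.57, Erp29 0.52, Erp44 0.56, Ssr2 0.030 and Derl2 0.025 with that mouse also left out, and Canx -0.36 with the strict filter. The cause was not tested.

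A replicate block gave 5 higher and 25 lower in young (26.8% and 22% of all genes) and 7 and 19 in aged mice (25.7% and 19.8%). It gave 0 and 0 in untreated (0.0213% and 0%) and 7 and 0 in treated age comparisons (1.66% and 0.787%), and 0 for the difference (0.00709% in each direction). Libraries of different groups were also correlated by their deviations from the group means. Over 15 same-numbered pairs r ran from -0.207 to 0.163, with 6 above 0.1, and over the 30 other pairs from -0.245 to 0.303. Of the 11 libraries, 4 correlated best with their own number. With 2 or 3 libraries behind each group mean these values cannot decide whether equal numbers share anything, and the labels do not say.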
